A study of Sus scrofa with 12 samples.

Results

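The Krüppel-like factor (KLF) genes considered here were KLF3, KLF4, KLF5, KLF6, KLF7, KLF9, KLF10, KLF11, KLF13 and KLF15, 10 genes of the 28247 with a position in the RefSeq table of the pig genome (Sscrofa11.1). They were chosen by name, and each was described by the chromatin loops and the RNAs found at its ends. The samples were longissimus muscle of male Large White (LW, a commercial lean breed) and Meishan (MS, a Chinese local breed) piglets at 2 weeks of age, untreated as far as the labels say. Each breed gave 2 libraries of BL-HiChIP, which ligates DNA ends that lie close together and enriches them with an antibody against H3K27ac, the acetylation that marks active regulatory DNA, and 2 libraries of GRID-seq, which ligates RNA to the DNA it lies on. The libraries were made in duplicate, and the sources do not say that the duplicates of a breed came from different animals, so the tests measure only the spread between libraries.

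KLF proteins are zinc-finger transcription factors that bind GC-rich and CACCC elements in promoters and enhancers. Some act mainly as repressors, through the corepressors CtBP (KLF3) or SIN3A (KLF9, KLF10, KLF11 and KLF13), others mainly as activators (KLF4, KLF5, KLF6 and KLF7), and KLF15 controls the use of amino acids and lipids in muscle. Several are induced by hormones: KLF9 and KLF15 by glucocorticoids and fasting, and KLF10 and KLF11 by TGF-β.

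The deposited lists held 57028 and 43282 loops in LW against 45061 and 33353 in MS between 5-kb bins. Loop strength means −log10 of the listed significance value (FDR), and the loop score of a gene as the summed strength of all loops anchored no more than 1 kb from either of its ends. The GRID-seq lists held 571 and 681 RNAs in LW against 519 and 649 in MS, with 8181721 and 9943666 RNA reads in LW against 7172517 and 9381797 in MS. The smallest number of reads of a listed RNA was 432 to 455, so an RNA missing from a list was not shown to be absent. Of 11 skeletal muscle fibre markers, 11 had a loop in every library, and the RNAs of 7 were listed in each library. Of 5 adipocyte markers, ADIPOQ, PLIN1 and LEP had no loop in any library. The other 2, FABP4 and CIDEC, had loops, 1 of them in all 4 libraries. Of all 28247 genes with a position, 15431 had a loop in at least 1 library.

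KLF gene ends carried 184 distinct loops, 81 and 79 of them in LW and 73 and 68 in MS. With anchors in exactly the same bins, 13 of the 184 were called in all 4 libraries, 15 in 3, 48 in 2 and 108 in 1. The share found in all 4 libraries was 7.07%, against 4.59% of the 59861 loops at the ends of any gene, and the share found in 1 library was 58.7%, against 65.9%. Loops of KLF genes reached further: their median length was 120 and 130 kb in LW and 145 and 140 kb in MS, against 60 and 50 kb in LW and 60 and 50 kb in MS for loops at the ends of any gene. No test was made of these differences, since the loops of a gene share its surroundings.

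KLF10, the TGF-β inducible early gene (chromosome 4, 34430132 to 34435990), had the highest mean loop score of the members, and the highest score in each library but MS replicate 2, where KLF7 lay just above it. Its score was 228 and 300 in LW against 151 and 212 in MS, which placed it 37th, 67th, 78th and 108th of the 15431 genes with a loop in any library. Both LW libraries lay above both MS libraries, at a mean of 264 ± 50.9 against 181 ± 43.3 (SD, n = 2 each). Most of this score was 1 loop of 165 kb, to the bin at 34265001 to 34270000. That loop had a strength of 142 and 151 in LW against 94.2 and 121 in MS, and made up 50.2% to 62.6% of the score. The bin holds the end of no gene and lies in the 173-kb gap between KLF10 and its lower neighbour AZIN1, the antizyme inhibitor of polyamine metabolism. Shorter loops in the same gap were called in at least 3 libraries at 150, 135, 100, 80 and 65 kb, and the one at 100 kb ended at the long noncoding RNA gene LOC100737961. A loop to the end of AZIN1 itself was called in MS replicate 2 alone, at a strength of 3.04. Among the genes with loop scores most like KLF10 over the 4 libraries were DHRS3 and LOC110256390, whose normalised scores differed from it by a mean of 0.13 each on the log2 scale.

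KLF7, a factor of neuronal development that also restrains fat cell formation, had the second highest mean score (chromosome 15, 110282399 to 110380165). The score was 86.8 and 214 in LW against 118 and 213 in MS, so that the libraries of the 2 breeds overlapped and those of LW differed 2.47-fold from each other. KLF7 had 30 distinct loops, 29 of them from its upper end, and 6 of these were called in all 4 libraries, the most of any member. The 6 spanned 145, 120 and 80 kb towards lower coordinates and 160, 220 and 270 kb towards higher ones, with strengths from 2.98 to 21.3. Close to the upper end the breeds called different bins. The loop of 20 kb was called in LW alone, at 20.4 and 40.5, and the loop of 15 kb in MS alone, at 24.5 and 53.6, but these far anchors are adjacent bins. The loops of 30 kb in MS, at 5.82 and 33.0, and of 5 kb in LW, at 14.3 and 12.7, had no loop within 1 bin of both anchors in the other breed.

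KLF9, the glucocorticoid- and thyroid hormone-induced repressor, followed in mean score (chromosome 1, 223723613 to 223747661). It scored 35.1 and 99.2 in LW against 71.8 and 108 in MS, and the libraries of the breeds overlapped. The 5-kb loop at its upper end was found in each library, at 23.7 and 39.1 in LW against 8.59 and 49.8 in MS. In MS replicate 1 a loop of 155 kb into the body of TRPM3 had a strength of 44.9, 62.5% of the score, and this loop was called in no other library. KLF9 had the only loops over 1 Mb among the members. A loop of 1040 kb into FAM189A2 was called in LW replicate 2 at 14.9 and MS replicate 2 at 8.35. A loop of 1965 kb, to the ends of TMC1 and ZFAND5, was called in LW replicate 1 at 5.20 and MS replicate 1 at 2.51. MS replicate 2 alone called a loop of 1445 kb, to the ends of ABHD17B and C1H9orf85, at 2.50. It alone also called a loop of 1985 kb into TMC1, at 2.56.

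KLF13, a SIN3A-binding factor known from T cells and heart development (chromosome 1, 143499136 to 143540233), scored 52.5 and 66.0 in LW against 69.8 and 119 in MS. Both MS libraries lay above both LW libraries, the nearest values being 66.0 and 69.8. The strongest loop of either MS library spanned 30 kb within the gene, at 21.8 and 56.3. LW called no loop between these bins, but had loops within 1 bin of them in both libraries. A loop of 125 kb into the body of OTUD7A was called in LW replicate 2 at 23.5 and in MS at 17.4 and 30.1, and a loop of 55 kb in the other direction in all 4 libraries at 4.45 to 5.81.

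KLF3, the CtBP-dependent repressor that restrains fat cell formation (chromosome 8, 30024978 to 30060981), scored 97.1 and 63.8 in LW against 87.7 and 58.3 in MS, and the breeds overlapped. Of its 31 loops, 30 ran towards lower coordinates, where a gap of 434 kb separates it from TBC1D1, a Rab GTPase-activating protein of glucose uptake in muscle. Of these, 9 reached across the gap into the body of TBC1D1, over 440 to 505 kb. The strongest, of 270 kb, ended at the long noncoding RNA gene LOC106504622, at 34.4 and 15.6 in LW and 41.8 in MS replicate 1. MS replicate 2 had its strongest loop 1 bin away, at 265 kb and 29.8. A loop to the end of TBC1D1, 440 kb away, was called in LW replicate 1 at 5.47 and MS replicate 1 at 2.61.

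KLF6, an activator induced early after tissue injury (chromosome 10, 66488445 to 66497830), scored 58.4 and 57.4 in LW against 69.4 and 111 in MS. Both MS libraries lay above both LW libraries. The strongest loop in MS spanned 15 kb, at 19.6 and 46.6, between bins that carried no LW loop, although LW had loops within 1 bin. KLF6 has no coding neighbour within 783 kb on the lower side and 499 kb on the upper side. Of its 32 loops none ended at a coding gene, and 24 were called in 1 library. The loop of 340 kb was found in each library, at 3.18 and 5.78 in LW against 3.58 and 3.17 in MS.

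KLF4, a factor of vascular and epithelial cells and of reprogramming (chromosome 1, 248604817 to 248609574), scored 19.9 and 17.8 in LW against 44.9 and 21.9 in MS. Both MS libraries lay above both LW libraries, by a margin set by MS replicate 2. All 15 of its loops ran towards higher coordinates, into the 1267-kb gap before ACTL7B, over 80 to 985 kb. The strongest in each library was one of 135 kb in LW, at 4.95 and 5.54, and in MS replicate 1, at 16.9, and of 130 kb in MS replicate 2, at 10.6.

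KLF15, the regulator of branched-chain amino acid and lipid use that glucocorticoids and fasting induce (chromosome 7, 53877813 to 53890558), scored 31.0 and 15.1 in LW against 39.9 and 18.3 in MS. The libraries of a breed differed 2.05-fold in LW and 2.18-fold in MS, more than the means of the breeds, which differed 1.26-fold. Its 10 loops were short, with a median of 25 kb. None was called in more than 2 libraries. A loop of 195 kb into SLC41A3 was called in both MS libraries alone, at 3.67 and 4.91, and a loop of 20 kb in both LW libraries alone, at 8.52 and 5.04.

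KLF11 and KLF5 had the lowest scores. KLF11, a TGF-β inducible factor (chromosome 3, 126419011 to 126429890), scored 21.8 and 13.0 in LW against 7.87 and 12.2 in MS, with both LW libraries above both MS libraries. Its 7 loops spanned 10 to 40 kb and none reached the end of another coding gene, although 3 fell inside CYS1 or GRHL1. KLF5, an activator in smooth muscle and myoblasts (chromosome 11, 45370009 to 45386673), had no loop in LW replicate 1 and MS replicate 1. In the other libraries it had 1 loop, between the bins on either side of its lower end, at 12.0 in LW and 2.19 in MS.

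**Figure D1:**
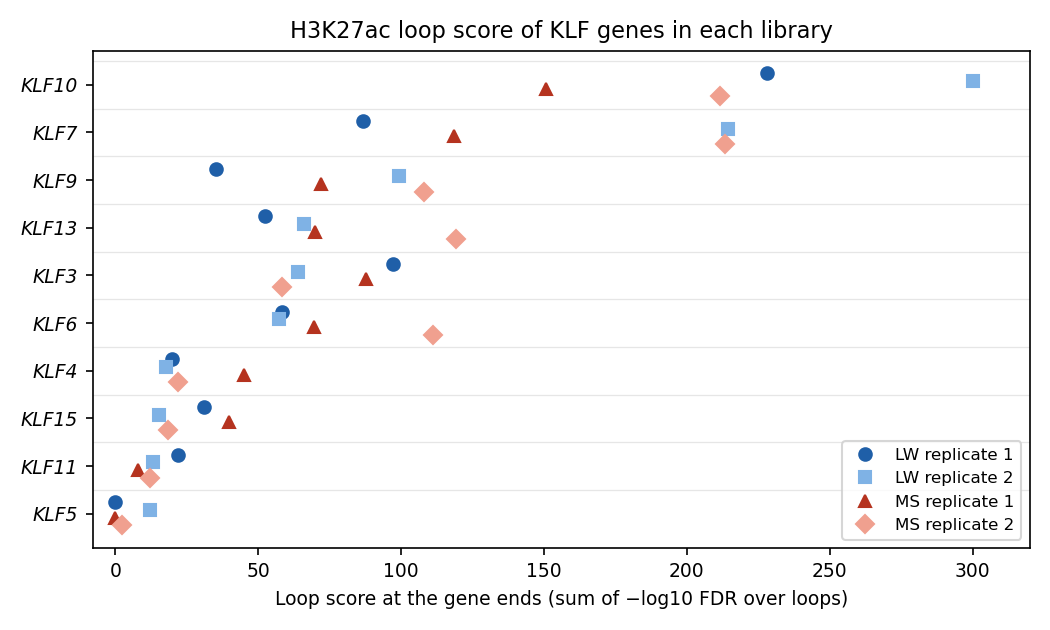
Loop score (summed −log10 FDR of the loops anchored at the gene ends, horizontal axis) of each KLF gene (rows, ordered by the mean of the 4 libraries), with 1 point per library, circles and squares for LW and triangles and diamonds for MS. KLF10 ranges from 151 to 300 and lies furthest right except in MS replicate 2, where KLF7 has 213 against 212, and KLF5 lies furthest left.

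Neighbours in the order of mean score could not be separated. KLF10 ranged from 151 to 300 and KLF7 from 86.8 to 214, while KLF9, KLF13, KLF3 and KLF6 had means between 74.1 and 78.5 and overlapping ranges. KLF4 and KLF15 both had a mean of 26.1, above KLF11 with 13.7 and KLF5 with 3.55.

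**Figure D2:**
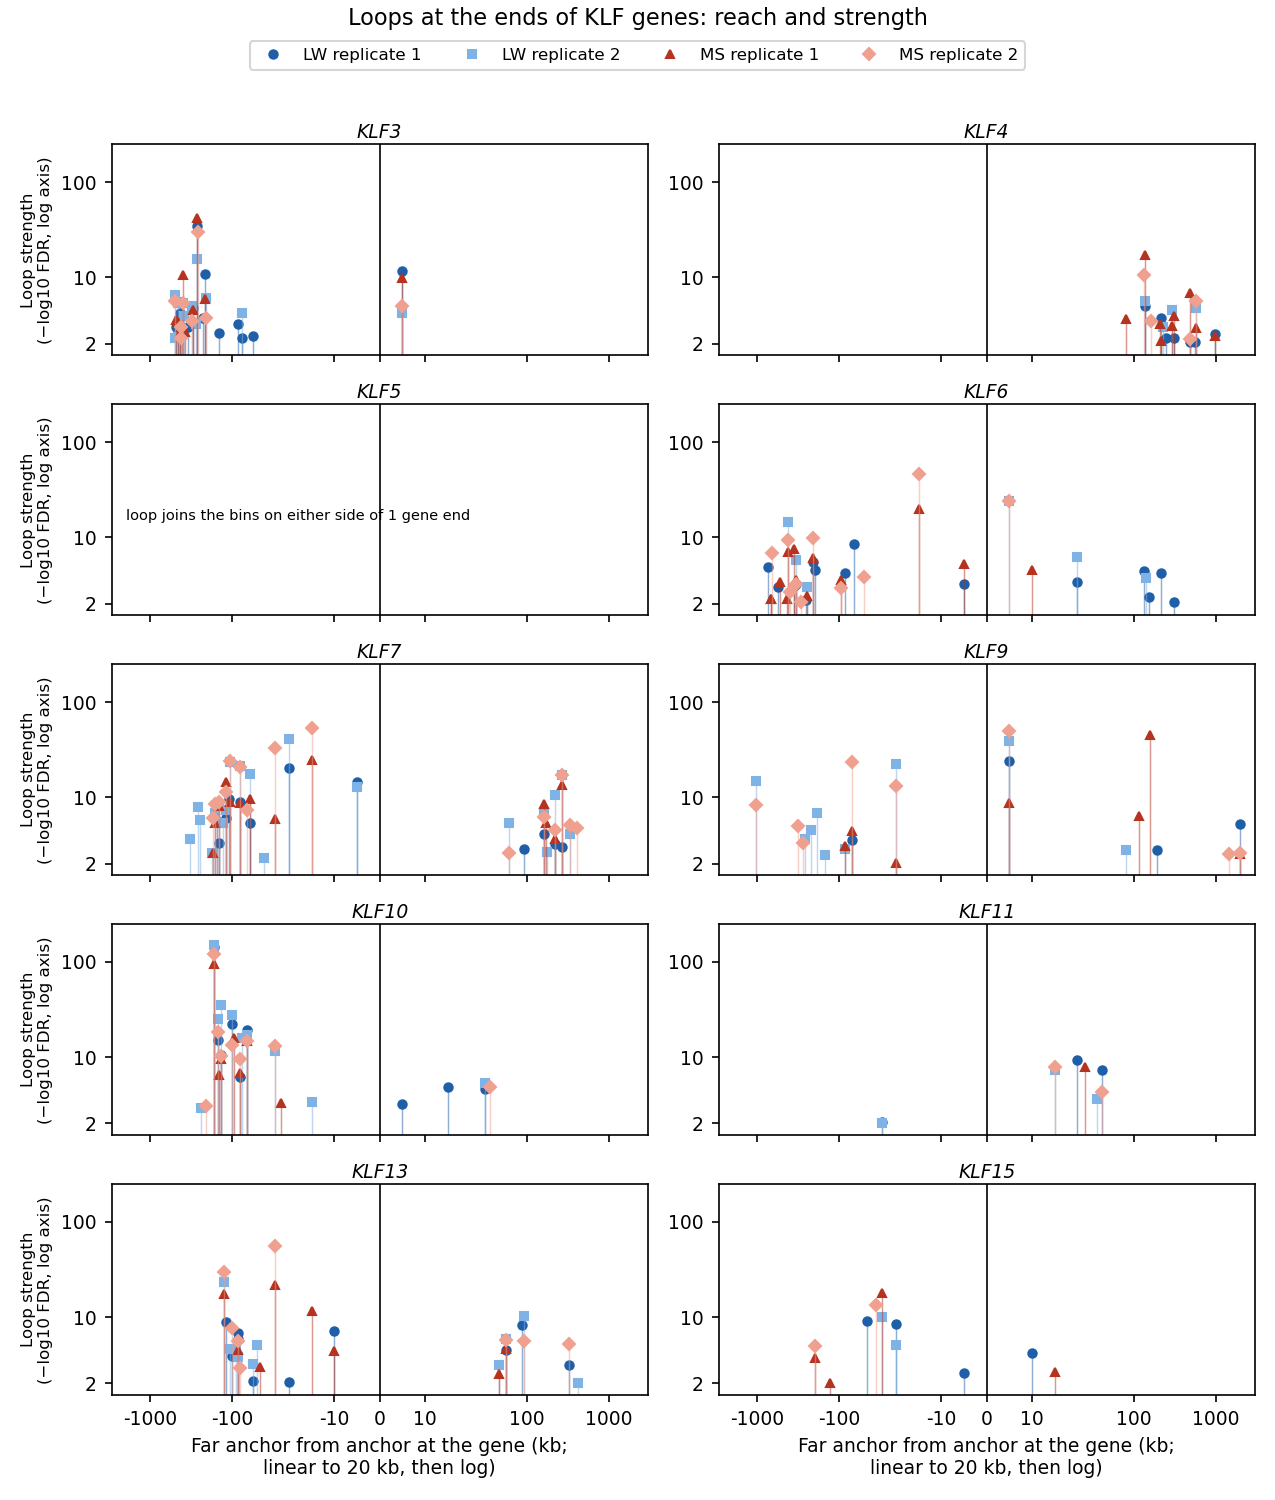
Loops of each KLF gene by the distance of the far anchor from the anchor at the gene (horizontal axis, kb, linear to 20 kb and logarithmic beyond, negative towards lower coordinates) and by strength (vertical axis, −log10 FDR, logarithmic), with 1 symbol per loop and library. KLF3 has 30 of its 31 loops on the lower side and KLF4 all 15 on the higher side, and the loop of KLF10 at 165 kb stands above all others at 94.2 to 151.

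The far anchors of KLF loops lay mostly away from other coding genes. Leaving out loops whose anchors both touched the gene ends, 179 pairs of a KLF gene and a loop remained, against 73177 for all coding genes. The far anchor held the end of another coding gene in 10 KLF pairs, 5.59%, against 38.9% for all coding genes. It touched no coding gene at all in 132 pairs, 73.7%, against 23.7%. A coding gene lay between the anchors in 16 pairs, 8.94%, against 38.1%, and the KLF gene was the coding gene nearest to the far anchor in 84 pairs, 46.9%, against 25.7%. KLF genes also lay beside wider gaps: the larger of the gaps to the neighbouring coding genes had a median of 247 kb, against 34.0 kb for 19518 coding genes, and the part of these gaps in the shares above was not tested. No loop called in at least 3 libraries had the end of another coding gene at its far anchor.

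The 10 loops that did end at a coding gene were each called in 1 or 2 libraries. Besides TBC1D1, AZIN1 and the pair TMC1 and ZFAND5, they reached CREB1, the cAMP-response factor, and LOC102167165 from KLF7 over 330 kb, at 4.10 in LW replicate 2 and 5.04 in MS replicate 2. METTL21A was reached from KLF7 over 410 kb, SMC5 from KLF9 over 185 kb, and ABHD17B with C1H9orf85 from KLF9 over 1445 kb. KLF13 reached MTMR10 over 325 kb in LW replicate 1 at 3.10 and MS replicate 2 at 5.22, and FAN1 over 420 kb, and KLF15 reached CFAP100 over 15 kb. These were weak loops, with strengths from 2.02 to 6.82.

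**Figure D3:**
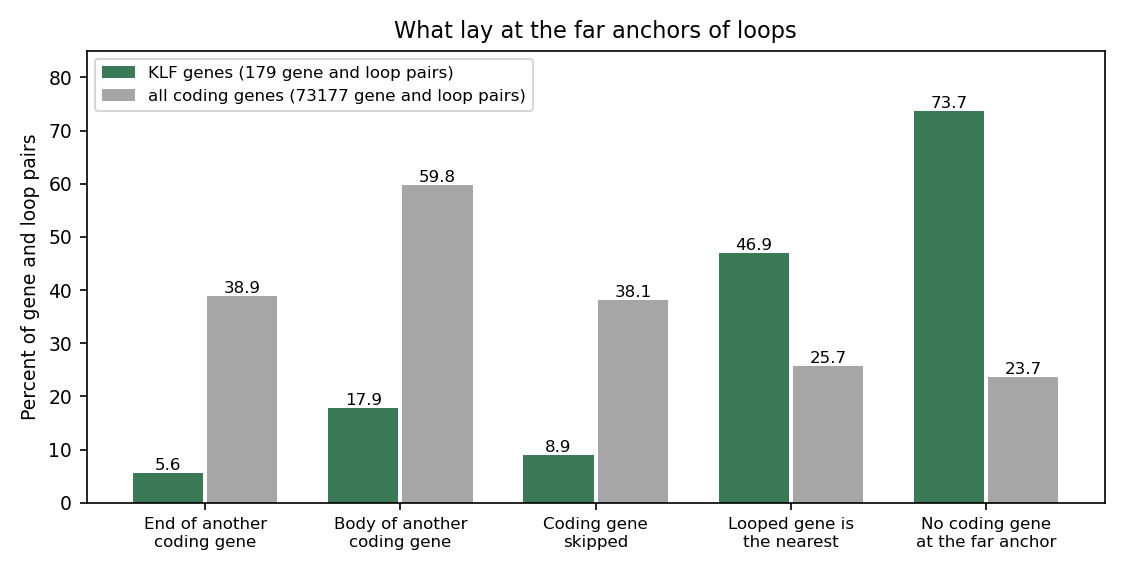
Share of gene and loop pairs (vertical axis, percent) with the named feature at the far anchor, for KLF genes (green, 179 pairs) and for all coding genes (grey, 73177 pairs). The end of another coding gene was found in 5.59% of KLF pairs against 38.9%, and no coding gene in 73.7% against 23.7%.

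Whether loop scores differed between LW and MS was tested for all genes with a loop in any library, with limma on log2(score + 1) after quantile normalisation. None of the 10 KLF genes passed the study's threshold, a log2 fold change above 1.5 with an unadjusted p under 0.05, against 5.33% of the 15431 genes (2.83% higher in LW and 2.5% higher in MS). No gene at all reached an adjusted p under 0.05, while 822 had an unadjusted p under 0.05. The log2 fold changes of LW over MS ran from -1.08 (KLF4, SE 0.80) to 0.79 (KLF5, SE 1.39), with a median of -0.55 against 0.02 over all genes, and the lowest adjusted p from limma among them was 0.992. KLF10 had 0.39 (SE 0.76) and KLF13 -0.84 (SE 0.75). With 2 libraries against 2, the smallest p of an exact two-sided permutation test of a gene is 0.333.

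Before normalisation, the libraries of the breeds did not overlap for 5 of the 10 genes, against 28.1% of all genes. KLF10 and KLF11 were higher in LW (2 of 10, against 21.1%) and KLF4, KLF6 and KLF13 higher in MS (3 of 10, against 7.02%). After quantile normalisation KLF11 overlapped, with 18.2 and 13.0 in LW against 8.03 and 15.1 in MS. KLF9 then did not overlap, with 31.9 and 82.7 in LW against 91.1 and 101 in MS. The share of all genes without overlap on that scale was not computed. On the log2(score + 1) scale before normalisation, the spread between libraries of a breed exceeded the breed difference for 8 of the 10 genes. The same held for 81.2% of all genes. Loop scores of markers of other cells also differed between the breeds in some lists. The summed score of 6 endothelial markers was 53.1 and 73.2 in LW against 83.7 and 161 in MS, with 5 of the 6 higher in MS, and that of 5 macrophage and leukocyte markers was 26.4 to 35.5 in LW and 45.4 to 56.9 in MS, with CD163 and PTPRC at 0 throughout. The summed score of 6 fibro-adipogenic markers was 172 and 228 in LW against 79.5 and 104 in MS, with 6 of 6 higher in LW, and that of 3 satellite cell markers was 37.3 to 60.4 in LW and 4.34 to 33.6 in MS. The breeds overlapped for 6 pericyte and smooth muscle markers, at 110 and 164 in LW against 88.2 and 136 in MS. They also overlapped for 11 muscle fibre markers, at 668 and 1439 in LW against 608 and 985 in MS. For 5 adipocyte markers the sum was 9.06 and 14.1 in LW against 7.56 and 6.14 in MS. The part of these markers in the KLF values was not tested. In such tissue samples, fewer cells of a type and less signal per cell cannot be told apart.

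GRID-seq listed the RNAs of 4 KLF genes, and those of KLF9 and KLF13 in every library. The KLF9 RNA had 6274 and 6840 reads in LW against 5539 and 6515 in MS, and the KLF13 RNA 5730 and 6252 in LW against 4848 and 5822 in MS. On the scale of the other RNAs these levels hardly moved: KLF9 had 912 and 900 normalised CPM (TMM scaling over the RNAs listed in all 4 libraries) in LW against 939 and 929 in MS, and KLF13 had 833 and 822 in LW against 822 and 830 in MS. In edgeR's quasi-likelihood test over the 308 RNAs listed in all 4 libraries, neither was called at an adjusted p under 0.05, against 86.7% of the RNAs. The log2 fold change of LW over MS was -0.04 (SE 0.02, adjusted p = 0.131) for KLF9 and 0.00 (SE 0.02, adjusted p = 0.887) for KLF13. When only library size was used to scale the reads, which moved the median of all RNAs by 0.13, KLF13 was called higher in LW at 0.13 (adjusted p = 0.0151) and KLF9 turned to 0.08. KLF6 RNA had 1064 reads in LW replicate 2 and 1207 and 1519 in MS, and was not listed in LW replicate 1. KLF15 RNA was listed in MS replicate 2 alone, with 1384 reads.

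The 4 RNAs stayed on their own chromosome and mostly near their gene. For KLF6 RNA, 92.1% to 98.9% of the listed signal, a background-corrected value per 1-kb bin, lay on the gene or within 10 kb of it, and for KLF15 RNA 78.7%. KLF13 RNA spread further, with 69.4% and 58.4% in LW and 71.0% and 70.6% in MS within that range. KLF9 RNA spread furthest: 44.5% and 46.9% of its signal in LW and 49.7% and 49.4% in MS lay within 10 kb, over 467 and 458 bins in LW against 409 and 396 in MS. The median RNA of a library kept 83.2% to 92.7% within that range on 69 to 92 bins, and 5.21% to 9.29% of RNAs had a lower local share than KLF9. KLF13 RNA lay on 287 and 277 bins in LW against 258 and 253 in MS. For how many of all RNAs both LW libraries had more bins was not counted.

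**Figure D4:**
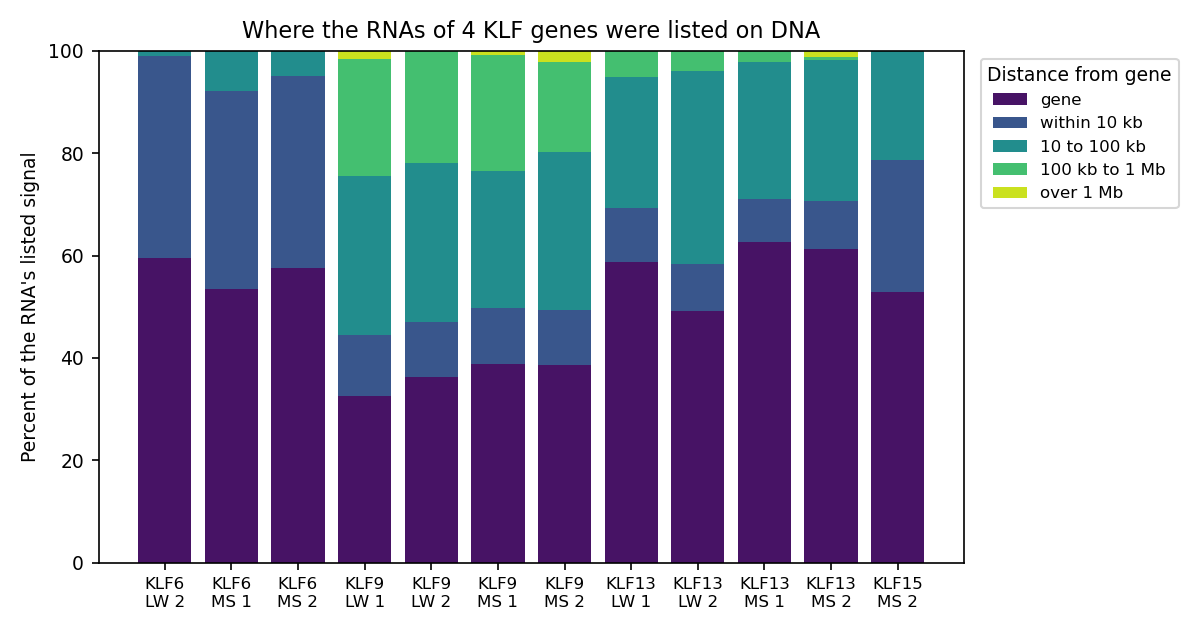
Share of the listed signal of KLF6, KLF9, KLF13 and KLF15 RNA (vertical axis, percent) by distance of the DNA bin from the gene, with 1 bar per library that lists the RNA. KLF9 RNA has 32.6% to 38.8% of its signal on the gene itself and 17.6% to 22.7% between 100 kb and 1 Mb away, the widest spread of the 4.

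Far anchors within 100 kb of KLF9 and KLF13 all carried the gene's own RNA, taking the loops of a breed together. KLF9 RNA was listed on 5 of 5 such anchors in each LW library and 4 of 4 in each MS library, and KLF13 RNA on 12 of 12 and 11 of 11. KLF6 RNA, which stayed closer, was on 2 of 5 in LW replicate 2 and 4 of 6 in each MS library. Beyond 100 kb, KLF9 RNA was on 5 and 3 of 7 far anchors in LW and 2 and 3 of 8 in MS. At 10 to 100 kb from its gene, KLF9 RNA was listed on 180 and 180 1-kb bins in LW and 164 and 171 in MS. KLF13 RNA was listed there on 155 and 169 bins in LW and 155 and 151 in MS. These bins cover most of that range, so most anchors placed anywhere in it would have carried the RNA. RNA signal also falls with distance, so such overlap is a description only.

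Far from its gene, KLF9 RNA appeared in short runs near the ends of its longest loops. At TMC1 and ZFAND5, 1953 to 1958 kb away, it covered 23 bins with a signal of 634 in LW replicate 1 and 25 bins with 937 in MS replicate 2. The loop to this place was called in LW replicate 1 and MS replicate 1. At ABHD17B and C1H9orf85 it covered 23 bins in LW replicate 1, where MS replicate 2 had called a loop. At FAM189A2 it covered 22 bins in MS replicate 1, ending at 222701000. In MS replicate 2 a run of 23 bins started at 222735001. Both runs missed the far bin of the 1040-kb loop of LW replicate 2 and MS replicate 2, at 222705001 to 222710000. In the other direction, ZFAND5 RNA was listed over KLF9 in LW replicate 1 alone, on 19 bins with a signal of 1248, although its reads numbered 3177 to 4656 in the 4 libraries. Other distant runs lay at KANK1 for KLF9 and at NEDD4, 27.4 Mb away, for KLF13, both in MS replicate 2. Runs of 23 bins were the most frequent length over 1 Mb from a gene for all RNAs in each library, so runs of this length were common in these lists.

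The RNA-chromatin signal at a gene, summed over all RNAs on bins within 5 kb of its ends, was highest where the RNA of the gene itself was listed. KLF9 had 21726 and 23674 in LW against 20249 and 17860 in MS, and KLF13 had 13226 and 11420 in LW against 17597 and 17967 in MS. Neither breed's libraries overlapped the other's, with KLF9 higher in LW and KLF13 higher in MS. KLF6 had 38895 in LW replicate 2 and 36922 and 47311 in MS, but 26.9 in LW replicate 1, where its RNA was not listed. KLF15 had 40439 in MS replicate 2, where its RNA was listed, against 25.0 and 19.9 in LW and 758 in MS replicate 1.

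KLF genes without a listed RNA of their own carried far less. KLF7 had 50.2 and 37.8 in LW against 296 and 54.6 in MS, and most of the value in MS replicate 1 came from IRS1 RNA, from 17.9 Mb away on the same chromosome, with 279. KLF4 was listed at 0 in LW and had 28.9 and 652 in MS, of which ZNF462 RNA, from 425 kb away, gave 635 in MS replicate 2. KLF11 was listed at 0 in LW and had 58.1 and 30.4 in MS. KLF10, the gene with the highest mean loop score, had 23.8 and 3.03 in LW against 0 and 35.3 in MS. KLF3 had 13.5 in LW replicate 2 and 10.8 in MS replicate 2 and was otherwise listed at 0. KLF5 was listed at 0 in LW and had 16.3 and 0.0265 in MS.

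**Figure D5:**
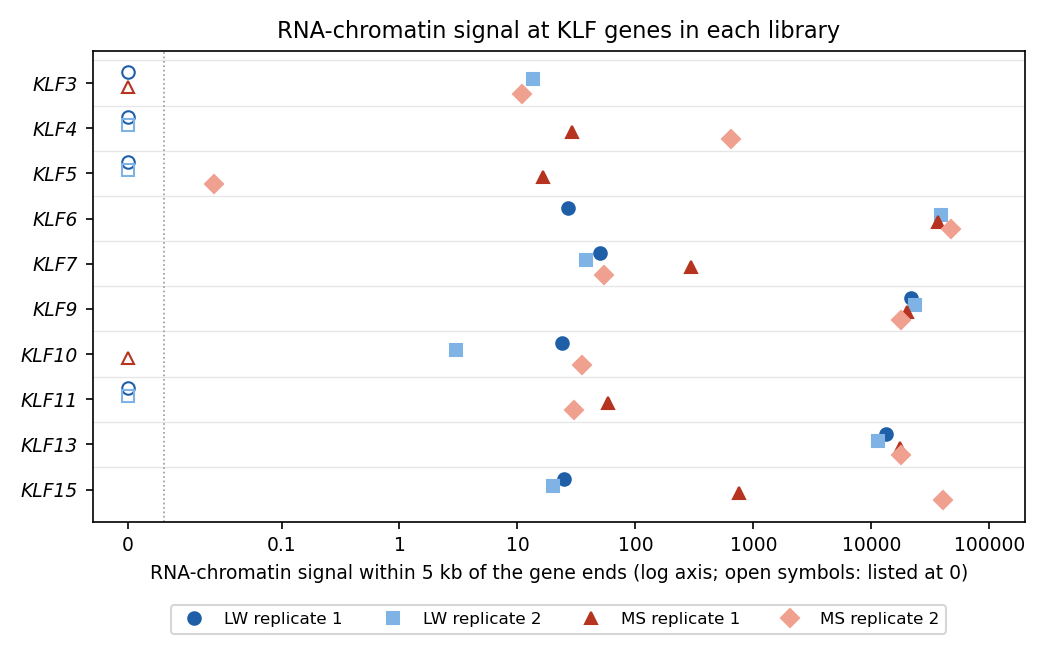
RNA-chromatin signal (sum over RNAs and 1-kb bins within 5 kb of the gene ends, horizontal axis, logarithmic) at each KLF gene (rows), with 1 symbol per library and open symbols for genes listed at 0. Values of 11420 and above occur only where the RNA of the gene itself is listed, and all others lie at 758 or below.

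The other RNAs at KLF ends were few and mostly widespread ones. Apart from 12 entries of a gene's own RNA, at 11418 to 47277, there were 77 entries of 23 RNAs, with a median signal of 13.5, and 58 of the 77 came from another chromosome. The 5 most frequent RNAs gave 50 of the 77. ENSSSCG00000048037 and ENSSSCG00000048856 RNA were each found at 8 KLF genes over the libraries together. ENSSSCG00000048037 RNA lay at 2 and 4 of the 10 KLF genes in LW, against 9.84% and 17.7% of all genes in the table, and at 6 and 4 in MS, against 21.6% and 25.2%. ENSSSCG00000048856 RNA lay at no KLF gene in LW, against 3.38% and 4.92% of all genes, and at 4 and 8 of the 10 in MS, against 7.08% and 11.8%. No test was made of these shares. TTN RNA, from the gene of the sarcomere protein titin, lay at 3 and 1 of the 10 KLF genes in LW, against 12.3% and 11.9% of all genes. In MS it lay at 1 and 1 of the 10, against 22.2% and 18.5%. Some RNAs of the same chromosome had higher values, but the signal is relative to each RNA's own reads. In MS replicate 1, ZNF592 RNA had 23027 reads and TTN RNA 697633. The values of different RNAs therefore do not compare their amounts. In MS replicate 1, KLF15 carried ZNF592 RNA at 339, MLIP RNA at 241 and ENSSSCG00000041322 RNA at 166. RORA RNA lay at KLF13 in LW replicate 1 at 24.5 and in MS at 62.9 and 74.7. At KLF13 in MS replicate 2, a transcript named Tx.43 gave 3550. It lies inside KLF13 on the opposite strand (143508560 to 143512010) and overlaps the bin at the far end of the 30-kb loop that MS called. Tx.43 had 486 reads, near the smallest number listed, and was listed in no other library.

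In limma on log2(signal + 1) after quantile normalisation, 3 of the 10 KLF genes passed the study's threshold for RNA-chromatin signal, a log2 fold change above 2 with an unadjusted p under 0.05, against 15.8% of the 23302 genes tested. All 3, KLF4, KLF11 and KLF15, were higher in MS, the direction of 8.28% of genes, while 7.49% passed with LW higher. No gene of the 23302 reached an adjusted p under 0.05, while 3676 had an unadjusted p under 0.05, and the limma adjusted p-values were 0.187 for KLF4, 0.191 for KLF11 and 0.220 for KLF15. KLF15 had a log2 fold change of LW over MS of -8.15 (SE 2.10), and without its own RNA, which was listed in 1 library, -2.92, no longer past the threshold. Leaving out each gene's own RNA also put KLF13 past it, at -6.26 (SE 1.96), with 24.5 and 2.38 in LW against 106 and 3639 in MS. Of the value in MS replicate 2, 3550 came from Tx.43, which lies inside KLF13 and was listed in that library alone. For KLF4 and KLF11 no fold is given, since both LW libraries were listed at 0. Without LW replicate 1 none of the 10 genes passed, and without LW replicate 2 KLF6 alone. Without MS replicate 2 the count was still 3, but KLF5 passed in place of KLF15, and without MS replicate 1 the 3 genes were the same. Before normalisation, the libraries of the breeds did not overlap for 7 of the 10 genes, against 37.2% of all genes. Of the 7, 1 was higher in LW (against 16.7%) and 6 higher in MS (against 20.5%). The RNAs ENSSSCG00000048037 and ENSSSCG00000048856 were themselves listed on more genes in MS replicate 2 than in LW replicate 1, by the shares given above.

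RNA-chromatin signal at markers of other cells also differed between the breeds in some lists. No RNA was listed in any library under the names of the endothelial, pericyte and smooth muscle, adipocyte, or macrophage and leukocyte markers. The signal at these genes therefore came from RNAs listed under other names, and does not measure the markers' own RNA. The summed signal of 6 endothelial markers was 14.0 and 26.4 in LW against 67.6 and 58.7 in MS, with VWF, CDH5, KDR and ERG at 0 in LW, and KDR passed with MS higher and TEK with LW higher. That of 3 satellite cell markers was 31737 and 43115 in LW against 845 and 3533 in MS, with PAX7 at 0 in MS. Most of the LW sum was CDH15, with 31737 and 39918 in LW against 0.19 and 20.4 in MS, which passed with LW higher. CDH15 RNA was listed in LW alone. By their means, 2 of the 3 markers were higher in LW and 1 in MS. The summed signal of 6 fibro-adipogenic markers was 186362 and 121818 in LW against 92621 and 68737 in MS, and none passed. The breeds overlapped in the sums of the next lists. For 6 pericyte and smooth muscle markers it was 762 and 1073 in LW against 290.1 and 1964 in MS, with RGS5 at 0 in MS, PDGFRB past the threshold with LW higher and NOTCH3 with MS higher. For 5 macrophage and leukocyte markers it was 5227 and 4504 in LW against 5392 and 3460 in MS, with PTPRC at 0 in LW and CD163 and MRC1 at 0 in MS. Of these, CSF1R, with 558 and 1102 in LW against 23.0 and 53.3 in MS, and CD163 passed with LW higher, while the summed loop score of this list was higher in MS. For 5 adipocyte markers the sum was 25.5 and 145 in LW against 77.6 and 77.2 in MS, with FABP4 and LEP at 0 throughout. That of 11 muscle fibre markers was 458889 and 403625 in LW against 301476 and 303895 in MS, and none passed. The part of these RNAs and markers in the KLF values was not tested.

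Lists of genes linked to KLF proteins were described in the same way. Among the other KLF and SP genes, 10 of the 16 with a position had a loop and none passed the threshold for loop score, at a median log2 fold change of -0.21. Of 13 with RNA-chromatin signal, KLF2, a factor of vessel lining, and SP6 passed with MS higher (2 of 13, against 15.8% of all genes past the threshold and 8.28% with MS higher), both listed at 0 in LW, with 63488 and 39664 for KLF2 and 15.5 and 28.5 for SP6 in MS. KLF2 RNA was listed in MS alone, with 505 and 618 reads. Of 6 corepressor genes 1, HDAC2, passed for RNA-chromatin signal, near that share of all genes, listed at 0 in LW and at 29.5 and 23.0 in MS, and none of the 4 with a loop passed for loop score.

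Among genes that KLF15 acts on in muscle and heart, 9 of 10 had a loop in every library and none passed for loop score. For RNA-chromatin signal 2 of 10 passed, both higher in MS, against the same 15.8% and 8.28% of all genes. FABP3, a fatty acid carrier of muscle, was at 0 and 10.8 in LW against 75254 and 65354 in MS. FBXO32, the ubiquitin ligase atrogin-1, was at 10.2 and 14.7 in LW against 321 and 635 in MS. The GRID-seq lists held 3 and 5 RNAs of these target genes in LW against 6 and 6 in MS, with FABP3 RNA in at least 1 library. An RNA missing from a list was not shown to be absent, and the part of listing in these values was not tested. Among 8 genes of the signals that induce KLF genes, NR3C1, which encodes the glucocorticoid receptor, had a loop score of 67.3 and 82.3 in LW against 14.3 and 19.5 in MS. Its log2 fold change of 1.87 (SE 0.76) passed the study's threshold, as 1 of 6 with a loop against 5.33% of all genes, with a limma adjusted p of 0.931. FOXO1, a factor of fasting, had RNA-chromatin signals of 42933 and 43387 in LW against 6073 and 5648 in MS, past that threshold with a limma adjusted p of 0.267, as 1 of 8 against 15.8%. KLF9 and KLF15, which glucocorticoids induce, overlapped between the breeds in loop score before normalisation. After quantile normalisation both MS libraries lay above both LW libraries for KLF9, while KLF15 still overlapped. A link of these scores to NR3C1 or FOXO1 was not tested.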

How the data were processed

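The deposited BL-HiChIP lists give, per loop, both 5-kb anchors and a p-value after adjustment (FDR), read as such because the authors called loops with FitHiChIP at its default and the lists end just under 0.01. The authors trimmed linkers with ChIA-PET2, aligned with BWA-MEM to Sscrofa11.1 and removed duplicates with Pairtools. Contact counts and read depth of these libraries were not used here. For GRID-seq, mapped with Bowtie2 2.2.5 per the submitters' processing notes, the lists the authors deposited give a whole number per RNA, read as its count of RNA reads, and a background-corrected signal per RNA and 1-kb bin that starts at 0.02. The lists carry no column names, so both readings rest on the values. The signal is relative to each RNA's own reads and does not give depth.

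The RefSeq table of Sscrofa11.1 gave the gene positions but no strand, so both gene ends were used, within 1 kb for loops and 5 kb for RNAs. A far anchor had a gene end if it lay within 1 kb of it. Groups followed the labels. limma 3.58.1, edgeR 4.0.16 and DESeq2 1.42.0 (an alternative) ran in R 4.3.3 over all genes, with Benjamini-Hochberg adjustment. A fold on the log2(value + 1) scale understates the change of low genes. Quantile normalisation gives tied zeros a shared value. The tests were tested on simulated data. Other steps used Python 3.11.15, numpy 2.4.6, pandas 2.3.3 and matplotlib 3.10.9.

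Named were all members, genes at far anchors of loops in at least 3 libraries, the RNA with the largest signal at each member, the 3 genes most like the member of highest score, and list genes past a threshold. Results for 2 genes named by this rule are not reported here. Other loops and RNAs were named after their values were seen. The members and lists were chosen with earlier results of these data known. Alternatives covered windows, the pseudocount, normalisation, low-value filters, a stricter FDR, the strand where given, the gene's own RNA, a replicate block and leaving out each library.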

Additional observations from a re-analysis of the deposited data

How the results depend on the processing

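Of 130 recomputed KLF log2 fold changes of loop score, 124 kept their direction and their side of the study's threshold, and of 120 for RNA-chromatin signal 103 did. The count of KLF genes past the threshold for loop score stayed at 0, except that KLF4 passed without MS replicate 2 (range 0 to 1 over libraries left out). For RNA-chromatin signal it ranged from 0 to 3, with 0 without LW replicate 1 and 1 without LW replicate 2. Without MS replicate 2 it stayed at 3, but KLF5 passed at -4.34 and KLF15 did not. Genes past the loop threshold numbered 1388 with a pseudocount of 0.1 and 246 with DESeq2 on the rounded score, and 836 to 1594 over libraries left out, with 1461 without LW replicate 1 and 1594 without MS replicate 2. The cause of these changes was not tested.

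Directions turned for few genes. In loop score KLF3 was 0.14 with no normalisation and -0.61 to 0.42 over libraries left out, and KLF5 -1.09 to 2.63. In RNA-chromatin signal KLF9 was -0.026 at the transcription start alone and -0.078 without its own RNA, and over libraries left out KLF3 ranged from -1.42 to 2.21 and KLF10 from -1.41 to 3.37. In reads, library size alone called 1 KLF RNA and gave 0.082 for KLF9, and KLF13 was -0.0029 with DESeq2, -0.029 with RNAs missing from a list set to 0, and -0.0080 to 0.0132 over libraries left out. Loops present in each of a breed's 2 libraries numbered 27 in LW and 30 in MS, 13 of them in both breeds. Over libraries left out, LW had 79 to 133 loops, MS 68 to 111, and both breeds 37 to 42. Matching anchors within 1 bin, chosen after seeing the data, put 50 loops in all 4 libraries.

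With a replicate block, 1289 genes passed the loop threshold, and no KLF call changed. In edgeR with the block, KLF9 RNA had a log2 fold change of -0.04 (adjusted p = 0.0548) and was not called. The deviations of replicate 1 correlated between breeds at 0.35 for loop scores, -0.0062 for RNA-chromatin signal and 0.94 for reads. For reads, replicates of the same number thus shifted alike in both breeds. The labels state no link between them, and the cause was not tested. The lists give no contact counts, and their minimum hides low RNAs.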
